A study of Mus musculus with 6 samples.

Results

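The data described here are the dividing endothelial cells among lung cells of TNF-Tg and WT mice. A barcode, the tag that marks 1 droplet and normally 1 cell, was taken as a cycling endothelial cell when it held at least 500 genes, at most 10% mitochondrial UMIs (unique molecular identifiers, each marking 1 captured mRNA), at least 3 of 5 endothelial genes (Egfl7, Tie1, Cldn5, Cdh5 and Pecam1) and at least 3 of the proliferation genes Mki67, Top2a, Cenpf, Birc5 and Cdk1, each with at least 1 UMI. This rule found 669 barcodes among 31669 endothelial barcodes, 38208 barcodes that passed the filter and 43545 barcodes in the files. The endothelial barcodes with none of the 5 proliferation genes detected, 29125 in all, are called non-cycling below.

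TNF-Tg mice carry a human TNF transgene and develop pulmonary vasculopathy, and WT mice are their littermates without it; the promoter that drives the transgene is not given in the sources used here. Lungs of several female mice of 1 genotype and age were pooled, viable cells negative for the leukocyte antigen CD45 and the epithelial antigen CD326 were sorted, and 1 droplet library was made for each genotype and age, the ages being 8, 14 and 20 weeks. A genotype therefore has 3 libraries, each of a different age, and no age has a second library of the same genotype. At these ages the WT libraries held 39574391, 33680696 and 39839916 UMIs in total, and 69082440, 64475410 and 72655387 were counted for TNF-Tg. Differences between individual mice cannot be seen, and p-values measure the spread between libraries of different ages.

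Lung endothelium is mostly capillary. General capillary (gCAP) cells are regarded as the population from which capillary cells renew themselves, whereas aerocytes (aCAP) are large, thin cells of the gas exchange surface. A cell that enters the cycle first switches on genes for DNA synthesis, many of them through E2F factors, and then genes for mitosis, many of them repressed in resting cells by the DREAM complex and later activated by MuvB with B-MYB and FOXM1. Of the proliferation genes in the rule, Mki67 encodes the antigen Ki-67, Top2a a topoisomerase that untangles DNA, Cenpf a kinetochore protein, Birc5 the mitotic protein survivin and Cdk1 the kinase that starts mitosis. All are genes of late S, G2 and M phase, so that the rule finds cells late in the cycle more readily than cells that have just entered it.

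The start sites of 4 of the 5 proliferation genes held sequence letters through which such factors are known to act. Promoter windows of 300 bases (250 before to 50 after the start site, RefSeq, GRCm38.p6) were searched on both strands for the CHR element (TTTGAA or TTCGAA), the E2F element (TTTGGCGC, TTTCCCGC, TTTCGCGC or TTTGCCGC) and the CCAAT box (CCAAT). The stretch from 150 bases before to 50 after the start is shown for 4 rule genes that held a CHR match and, for contrast, for Mcm6, a replication helicase subunit of the S phase list. Capitals mark the matches, and each line runs 5′ to 3′ on the strand of the gene, which is the minus strand in every case.

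Mki67, chr7:135716330-135716529: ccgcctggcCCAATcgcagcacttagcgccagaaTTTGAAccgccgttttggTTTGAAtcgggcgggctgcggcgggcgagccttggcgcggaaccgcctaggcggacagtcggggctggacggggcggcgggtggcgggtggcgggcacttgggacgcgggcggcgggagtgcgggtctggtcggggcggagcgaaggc
Top2a, chr11:99024140-99024339: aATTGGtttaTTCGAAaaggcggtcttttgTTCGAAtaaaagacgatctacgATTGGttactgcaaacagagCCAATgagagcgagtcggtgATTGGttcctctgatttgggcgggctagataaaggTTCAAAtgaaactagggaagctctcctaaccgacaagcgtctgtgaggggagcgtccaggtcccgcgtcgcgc
Cenpf, chr1:189688037-189688236: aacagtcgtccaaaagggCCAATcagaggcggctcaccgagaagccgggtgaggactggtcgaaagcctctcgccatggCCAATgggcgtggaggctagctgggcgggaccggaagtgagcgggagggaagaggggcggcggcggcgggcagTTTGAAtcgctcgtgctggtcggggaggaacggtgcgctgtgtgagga
Cdk1, chr10:69352863-69353062: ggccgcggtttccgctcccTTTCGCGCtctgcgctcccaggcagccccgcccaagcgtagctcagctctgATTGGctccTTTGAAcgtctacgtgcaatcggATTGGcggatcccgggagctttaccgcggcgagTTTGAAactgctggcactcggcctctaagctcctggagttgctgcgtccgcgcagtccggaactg
Mcm6, chr1:128359656-128359855: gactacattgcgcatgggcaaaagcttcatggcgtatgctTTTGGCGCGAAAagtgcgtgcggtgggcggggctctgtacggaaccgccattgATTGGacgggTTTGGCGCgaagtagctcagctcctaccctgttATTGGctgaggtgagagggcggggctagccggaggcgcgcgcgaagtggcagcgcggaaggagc

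Mki67, Top2a, Cenpf and Cdk1 each held CHR and CCAAT letters, Cdk1 also an E2F match, and the window of Birc5 held none of the 3. In Cdk1 the nearest CHR match began 15 bases before the start site, in Top2a 23 bases before it, in Mki67 98 bases before it and in Cenpf 2 bases after it. Mcm6 held no CHR match and 3 E2F matches, 2 of which overlap. Over the lists, CHR letters were found in 73.0% of the 63 windows of the G2 and M phase list (57 of its 69 genes had a window) and in 16.2% of the 37 windows of the S phase list (32 of 44 genes), against 19.2% of all 32851 windows. E2F letters showed the opposite split, with 35.1% of S phase windows, 7.94% of G2 and M phase windows and 2.26% of all windows. CCAAT letters were frequent in both, at 62.2% and 74.6%, against 37.4% of all windows. A match describes the letters and is not evidence that a factor binds there.

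Cycling endothelial cells were a small share of the WT endothelium and a much larger share of the TNF-Tg endothelium at every age. In WT lungs 23 of 5337 endothelial barcodes were cycling at 8 weeks, 7 of 5314 at 14 weeks and 19 of 6144 at 20 weeks, which are shares of 0.431%, 0.132% and 0.309%. In TNF-Tg lungs 294 of 6013, 184 of 4758 and 142 of 4103 were cycling, or 4.89%, 3.87% and 3.46%. The 95% intervals (exact, Clopper-Pearson; they cover only counting error) were 0.273 to 0.646%, 0.0530 to 0.271% and 0.186 to 0.483% for WT and 4.36 to 5.47%, 3.34 to 4.45% and 2.92 to 4.07% for TNF-Tg. The lowest TNF-Tg share was above the highest WT share, and of all 669 cycling barcodes 620 came from TNF-Tg lungs.

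The mean share was 0.291% ± 0.150 (SD, n = 3 libraries) in WT and 4.07% ± 0.736 (SD, n = 3) in TNF-Tg, a 14.0-fold ratio. Exact permutation of the 6 libraries between the genotypes (two-sided) gave p = 0.1, the smallest value that 3 against 3 libraries can give. Within each age the ratio was 11.3-fold at 8 weeks, 29.4-fold at 14 weeks and 11.2-fold at 20 weeks, the middle value resting on the 7 WT barcodes of that age. TNF-Tg shares were lower at 14 and 20 weeks than at 8 weeks, but with 1 library an age this order has no replicate check.

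**Figure D1:**
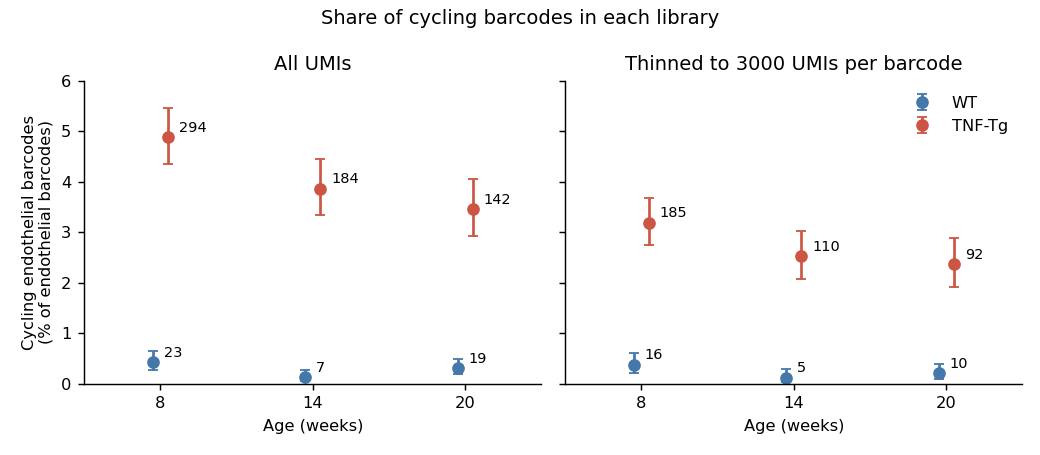
Cycling endothelial barcodes as a percentage of endothelial barcodes (y axis) by age in weeks (x axis), for WT (blue) and TNF-Tg (red); points are libraries, bars exact 95% binomial intervals, and the number beside each point is the count of cycling barcodes. Every TNF-Tg point lies above every WT point with all UMIs (left) and with each barcode thinned to 3000 UMIs (right).

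Depth bears on a rule that counts detected genes. Non-cycling endothelial barcodes had a median of 4525.5, 4252 and 4285 UMIs in WT libraries and 8786, 9009.5 and 9459 in TNF-Tg libraries, and cycling barcodes were deeper in each library, with 7730, 9956 and 7743 against 12403.5, 14545 and 15708 UMIs. When each barcode was thinned to 3000 UMIs and both rules were applied to what remained, 16 of 4190, 5 of 4066 and 10 of 4782 WT endothelial barcodes were cycling (0.382%, 0.123% and 0.209%). The TNF-Tg counts were 185 of 5802, 110 of 4356 and 92 of 3884 (3.19%, 2.53% and 2.37%), again without overlap between the genotypes (11.3-fold ratio of the means, p = 0.1, two-sided exact permutation test, n = 3 libraries each, the smallest value possible).

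A level that needs no detection in single barcodes gave the same order. Summed over all endothelial barcodes of a library, the 5 proliferation genes together made up 37.6, 15.2 and 22.0 CPM in WT lungs and 252, 207 and 197 in TNF-Tg lungs, where CPM is the count scaled to the total UMIs of the same sum. The means were 24.9 CPM ± 11.5 and 219 CPM ± 29.4 (SD, n = 3 libraries each; p = 0.1, two-sided exact permutation test). Such a sum cannot tell more cycling cells from more mRNA of these genes in each.

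Endothelial identity was checked against the rule genes themselves. In the summed cycling barcodes of the TNF-Tg libraries Pecam1, an adhesion molecule of endothelial junctions, stood at 1169, 1084 and 1145 CPM, close to 1300, 1344 and 1313 CPM in non-cycling barcodes. Cdh5 (VE-cadherin) stood at 1269, 1100 and 1006 CPM, and Cldn5, a tight junction protein, at 2331, 1479 and 1076 CPM, below the 3324, 2243 and 1770 CPM of non-cycling barcodes in each library. All 5 endothelial rule genes together stood at 6674, 5395 and 4797 CPM in TNF-Tg members against 8335, 6963 and 6092 in non-cycling barcodes. In WT they stood at 6541, 3918 and 2986 CPM in members against 9756, 8877 and 9833, a larger fall at 14 and 20 weeks. Because these genes chose the barcodes, the levels describe the members and are no separate evidence for their type. No cycling barcode sequence was found in more than 1 library.

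Markers of other lineages were present in part of the members. At least 2 genes of 1 such list were detected in 7 of 23, 3 of 7 and 3 of 19 WT members and in 81 of 294, 63 of 184 and 23 of 142 TNF-Tg members. These are shares of 30.4%, 42.9% and 15.8% in WT and 27.6%, 34.2% and 16.2% in TNF-Tg, beside 26.0%, 7.91% and 3.31% and 24.4%, 22.6% and 13.3% of the non-cycling barcodes. The share was higher among members in all 6 libraries, but members were also deeper in each, and it was not compared at equal depth. At 8 weeks the genes behind these shares were mainly haemoglobin transcripts, the erythroid and platelet list being met in 7 WT and 69 TNF-Tg members. Summed levels of that list did not follow the shares. They were 225, 48929 and 20.7 CPM in WT members against 2877, 412 and 57.6 in WT non-cycling barcodes. In TNF-Tg they were 109, 603 and 2779 CPM in members against 1967, 30.3 and 466 in non-cycling barcodes. In the 14-week TNF-Tg library the mesenchymal list was met in 33 and the mural list in 35 members, with summed levels of 1170 and 681 CPM. The most abundant mesenchymal and mural genes there were Col1a2 at 320 CPM and Acta2 at 308 CPM. Ptprc, which encodes CD45, was at 0 in the members of the WT and of the 8- and 14-week TNF-Tg libraries, and Epcam, which encodes CD326, was at 0 in the members at 8 and 14 weeks of both genotypes but was detected at 20 weeks in both, in WT only in the barcode described next. With every barcode of 2 or more such genes left out, the shares of cycling barcodes still did not overlap between the genotypes, and the mean difference was 3.55 percentage points against 3.78 with them.

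One member stood apart by its UMI count. The 20-week WT library held a member with 171589 UMIs, 50.8% of all UMIs of the 19 members of that library, whereas the deepest member of any other library had 57146. It met the endothelial rule with 2 UMIs of Cdh5, 1 of Cldn5 and 3 of Egfl7 and the proliferation rule with 1 UMI each of Top2a, Birc5 and Cdk1, while Pecam1, Tie1, Mki67 and Cenpf were at 0. Its most abundant genes were Krt13 with 5829 UMIs, Krt4 with 5057, Mt4 with 4122, Fabp5 with 3853 and Krtdap with 2786. Krt13 and Krt4 are keratins of stratified squamous epithelium, so that this barcode goes against its label. Without it, called the keratin barcode below, 18 of 6143 endothelial barcodes were cycling in that library (0.293%), 2 of 18 members met a list of another lineage, and the difference in mean cycling share was 3.79 percentage points. At 3000 UMIs it was not among the cycling barcodes, and the summed level of the 5 proliferation genes stayed at 22.0 CPM. The genotype tests below are counted with and without it, and for single genes the WT levels and the changes are those without it unless stated otherwise. In addition, the 7 WT members at 14 weeks held 31039 CPM of Hbb-bs, a haemoglobin chain, and 1 of these members met the erythroid and platelet list. Some TNF-Tg members met the endothelial rule with only 3 genes while 6 to 8 genes of another lineage were detected. They included members of 37890, 44291, 54460 and 36494 UMIs at 14 weeks and of 29964 UMIs at 8 weeks. These were kept in the genotype tests, both with and without the keratin barcode.

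The rule cut through a continuous range. Among TNF-Tg endothelial barcodes 12582 had none of the 5 proliferation genes, 1420 had 1, 252 had 2, 144 had 3, 156 had 4 and 320 had all 5, and the WT numbers were 16543, 184, 19, 16, 10 and 23. Just outside the rule, the 252 TNF-Tg barcodes with 2 genes held 1674 CPM of the S phase list and 2967 CPM of the G2 and M phase list without the rule genes. Just inside it, the 144 with 3 genes held 2885 and 5278 CPM, and the 320 with all 5 held 4099 and 22688 CPM. Barcodes with none held 627 and 1621 CPM.

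**Figure D2:**
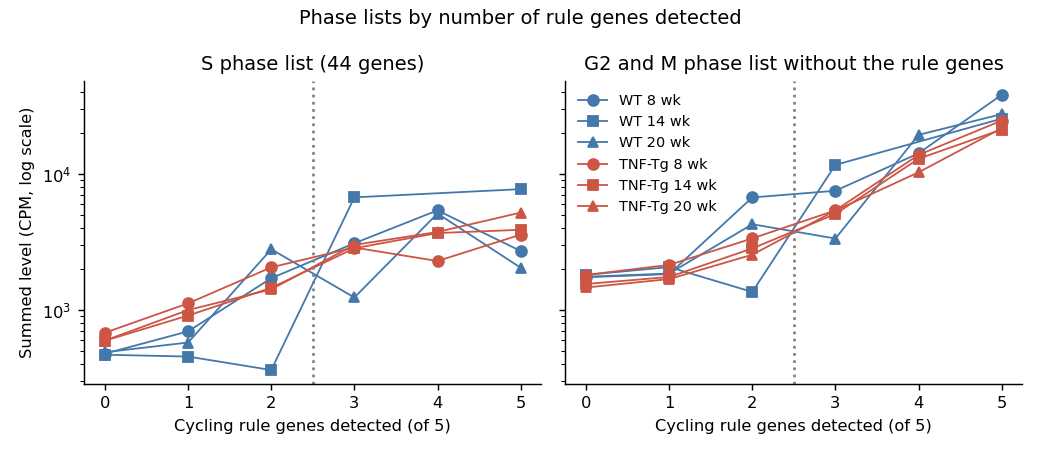
Summed level in CPM on a log scale (y axis) of the S phase list (left) and of the G2 and M phase list without the rule genes (right) in endothelial barcodes grouped by how many of the 5 rule genes were detected (x axis); each line is 1 library, blue for WT and red for TNF-Tg, and the dotted line marks the rule. In the TNF-Tg libraries the G2 and M phase level rose with every gene detected, while the WT points at 2 or more genes rest on 2 to 11 barcodes each, with none at 4 genes in the 14-week library.

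Within the members, few held more S phase than G2 and M phase UMIs, which follows in part from the lists and the rule. More UMIs of the S phase list than of the G2 and M phase list (rule genes left out) were found in 7.82%, 10.3% and 8.45% of TNF-Tg members and in 8.70% and 5.26% of WT members at 8 and 20 weeks. The genotypes overlapped (8.87% ± 1.30, SD, n = 3, against 6.98% ± 2.43, SD, n = 2; p = 0.6, two-sided exact permutation test, where 2 against 3 libraries cannot go below 0.2). Such barcodes were concentrated at the edge of the rule in TNF-Tg, with 28.5% of those with 3 genes detected against 0.938% of those with all 5. Without the keratin barcode the 20-week WT share was 5.56% (1 of 18). Among all non-cycling barcodes the share was 5.41% in TNF-Tg and 4.03% in WT. There too the G2 and M phase list held more than the S phase list (1621 against 627 CPM in TNF-Tg, 1762 against 478 in WT). The rule also chose members by G2 and M phase genes, so nothing is read from a low share. This share is a range of a score and not a cell type, and 7 TNF-Tg members and no WT member lay within 5 UMIs of the divide.

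At equal depth the members carried general capillary genes and fewer aerocyte genes than non-cycling barcodes. At 3000 UMIs per barcode, at least 2 of 6 gCAP genes (Gpihbp1, Aplnr, Kit, Glp1r, Plvap and Cd93) were detected in 92.4%, 91.2% and 85.8% of TNF-Tg cycling barcodes, beside 82.7%, 75.2% and 75.1% of non-cycling ones. In WT at 8 and 20 weeks the cycling shares lay between 84.2% and 95.7%. The summed gCAP level in WT was nevertheless lower in cycling barcodes (3414, 1395 and 1541 CPM, keratin barcode included) than in non-cycling ones (4613, 4635 and 4836 CPM). At least 2 of 7 aCAP genes (Car4, Ednrb, Tbx2, Fibin, Apln, Rprml and Chst1) were detected in 9.69%, 4.42% and 2.84% of TNF-Tg cycling barcodes, beside 18.0%, 21.0% and 16.8% of non-cycling ones. In WT no cycling barcode reached 2 aCAP genes (0 of 23, 0 of 7 and 0 of 19), beside 19.3%, 18.4% and 16.5% of non-cycling barcodes. With all UMIs the aCAP list was met in 24.8%, 29.3% and 22.5% of TNF-Tg cycling barcodes beside 27.1%, 32.0% and 26.6% of non-cycling ones, and in 5 of 23, 0 of 7 and 2 of 19 WT cycling barcodes beside 22.8%, 21.4% and 18.7%, the cycling barcodes being the deeper ones. The aCAP share was lower in cycling barcodes of all 6 libraries at both depths, but its size depended on depth. With all UMIs the gap was smaller in each TNF-Tg library and almost gone in the 8-week WT library (5 of 23 beside 22.8%). The WT counts of 0 rest on only 23, 7 and 19 barcodes and allow shares well above 0. Cycling against non-cycling is a description here, since the rule chose both.

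The vessel lists separated cycling barcodes of the genotypes in their arterial, venous and lymphatic genes. The arterial list, part of which capillary cells also express, was met in 79.6%, 65.2% and 57.4% of TNF-Tg and in 30.4%, 42.9% and 21.1% of WT cycling barcodes, although non-cycling barcodes of the genotypes overlapped (80.4%, 68.4% and 62.4% against 68.1%, 64.8% and 69.7%). The venous list was met in 4.50%, 13.3% and 16.3% of TNF-Tg and in 21.7%, 42.9% and 26.3% of WT cycling barcodes, where the non-cycling barcodes overlapped (8.29%, 7.84% and 14.1% against 11.8%, 13.1% and 11.9%). The lymphatic list was met in 1.38%, 0% and 0% against 8.70%, 14.3% and 5.26%, counts of 4, 0 and 0 TNF-Tg and 2, 1 and 1 WT barcodes. Non-cycling barcodes were separated in the same direction by the lymphatic list, with 1.20%, 0.746% and 1.66% in TNF-Tg and 7.81%, 10.8% and 9.34% in WT. Without the keratin barcode, which met none of these lists, the 20-week WT shares were 22.2%, 27.8% and 5.56% for the arterial, venous and lymphatic lists.

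Over the libraries with at least 10 members, the arterial, venous, lymphatic and aCAP shares did not overlap between the genotypes, but 2 WT against 3 TNF-Tg libraries allow no p-value below 0.2. Each of these 4 lists gave p = 0.2 (two-sided exact permutation test; 0.25 after Benjamini-Hochberg adjustment over the 5 lists), and the gCAP list p = 1. The difference in means was 41.7 percentage points for the arterial list and -12.7 for the venous list (TNF-Tg minus WT). With all UMIs in place of 3000 per barcode the venous difference turned to 12.0 percentage points, so that its direction depends on depth.

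**Figure D3:**
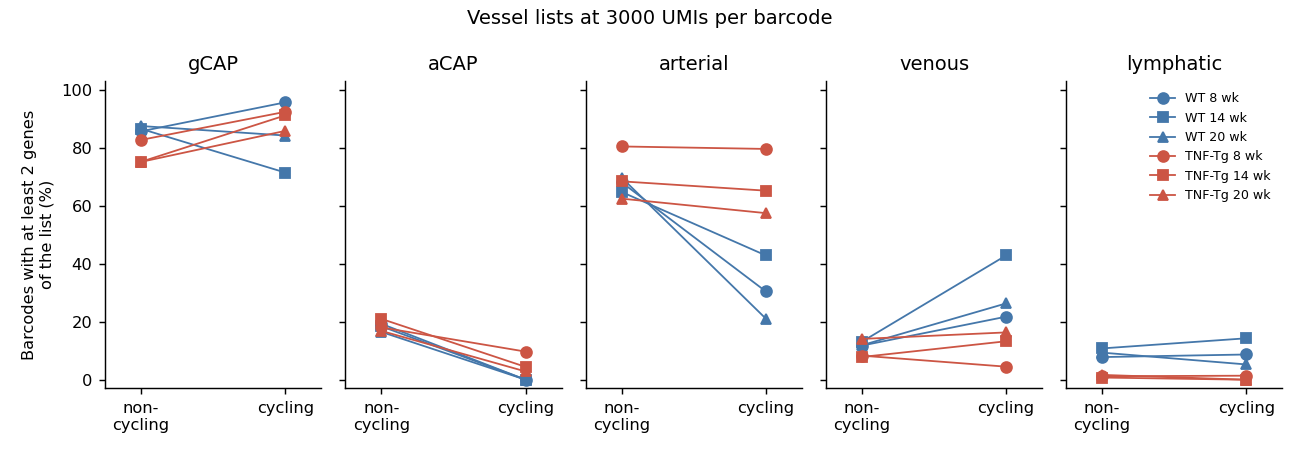
Percentage of barcodes with at least 2 genes of each vessel list at 3000 UMIs per barcode (y axis), in non-cycling and cycling endothelial barcodes of the same library (joined by a line; blue WT, red TNF-Tg; circle 8, square 14, triangle 20 weeks). The aCAP share was lower in cycling barcodes of all 6 libraries, and the arterial share was 21.1 to 42.9% in WT and 57.4 to 79.6% in TNF-Tg cycling barcodes; the 14-week WT points rest on 7 barcodes.

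Genes of cycling barcodes were set against those of non-cycling barcodes within each TNF-Tg library, as a description with no test because the rule chose both kinds. A gene was counted when it differed at least 2-fold in the same direction in all 3 TNF-Tg libraries and reached at least 50 CPM in the higher kind in each. Of 3487 genes that reached this level, 222 (6.37%) were higher and 18 (0.516%) lower in cycling barcodes, and without the level 713 were higher and 1055 lower. A gene that reaches the level only through the kind in which it is high has to differ, in either direction, so that the counts and medians of the lists below follow in part from the level and from the rule and support nothing. Apart from the rule genes, all 22 genes of the S phase list that reached the level were higher, as were 56 of 57 of the G2 and M phase list, Ctcf being the exception, and 22 and 7 genes of these lists stayed under the level. The median log2 ratio was 3.08 for the S phase genes and 6.83 for the G2 and M phase genes, against -0.02 over all 3487 genes.

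Among S phase genes Pcna, the sliding clamp of DNA polymerase, stood at 222, 268 and 351 CPM in cycling and 67.2, 64.8 and 69.2 CPM in non-cycling barcodes at 8, 14 and 20 weeks. Atad2, a chromatin ATPase, stood at 191, 213 and 284 CPM against 21.1, 26.0 and 23.9 CPM. Among the mitotic genes Hmgb2, a chromatin protein, stood at 3175, 2588 and 2440 CPM against 130, 95.1 and 112 CPM, and Stmn1, which destabilizes microtubules, at 1916, 1903 and 1915 CPM against 498, 280 and 219 CPM. The kinds did not overlap for any of these genes.

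Outside both lists 139 genes were higher, and the 10 with the largest ratios are known mostly as genes of replication and division. Replication-dependent histone genes made up 4 of the first 10 (Hist1h3c, Hist1h1b, Hist1h2ap and Hist1h2ab); their copies are near identical, so that reads may be split among them. Hist1h1b, a linker histone, stood at 674, 745 and 796 CPM in cycling barcodes and at 2.36, 1.39 and 1.30 CPM in non-cycling ones. The others were Esco2, which establishes sister chromatid cohesion (80.5, 96.0 and 119 CPM against 0.232, 0.129 and 0.111), Cep55, which acts in abscission (141, 108 and 114 CPM against 0.316, 0.180 and 0.304), Aspm, a spindle pole protein, Neil3, a DNA glycosylase, Mxd3, a MAX partner, and Depdc1a. Their median log2 ratios lay between 8.45 for Hist1h2ab and 9.39 for Depdc1a.

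Of the 37 listed control genes 15 reached the level, of which 3 were higher and 1 lower, beside 6.37% and 0.516% of all 3487 genes. All 4 reached it through 1 kind of barcode alone, which fixed their direction. Foxm1, the activator of mitotic genes, was higher (65.4, 52.6 and 65.9 CPM against 1.14, 1.49 and 1.08), as were the CDK inhibitors Cdkn2c (152, 163 and 192 CPM against 18.1, 20.7 and 25.7) and Cdkn2d (122, 132 and 123 CPM against 15.4, 14.5 and 15.8). Ccnd2, a D-type cyclin of the start of the cycle, was lower (21.4, 29.2 and 9.41 CPM against 57.0, 85.1 and 54.9). Ccnd1, the other abundant D-type cyclin, stood at 478, 567 and 628 CPM against 506, 630 and 598 CPM, a median log2 ratio of -0.08, and its levels overlapped between the kinds.

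The 18 lower genes included aerocyte genes. Ednrb, the endothelin receptor of aerocytes, stood at 15.4, 13.6 and 4.50 CPM in cycling and 88.0, 65.8 and 57.2 CPM in non-cycling TNF-Tg barcodes, Tbx2, a transcription factor, at 44.2, 24.1 and 15.6 against 114, 104 and 73.6 CPM, and Car4, a carbonic anhydrase, at 302, 235 and 113 against 615, 725 and 433 CPM. Apln, also of the aCAP list, stood at 21.4, 16.0 and 62.2 against 76.3, 65.9 and 121 CPM and missed the 2-fold limit in 1 library. Of the 4 aCAP genes at this level, 3 were lower, beside 0.516% of all genes; Ednrb and Tbx2 reached the level in every library through the non-cycling barcodes alone and so had to be lower, as Apln did in 2 of 3 libraries, and nothing is read from this count. Car4 was above 50 CPM in both kinds. The other lower genes with the largest ratios were Slfn5, Mapt, Krt80, Emp2, Cyp4b1, Hopx, Lims2 and Vwf, from -2.49 for Slfn5 to -1.64 for Vwf; Emp2, Hopx and Krt80 are also expressed in epithelium.

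The gCAP genes differed little between the kinds of barcode. Kit, a receptor tyrosine kinase, stood at 452, 336 and 278 CPM in cycling and 562, 355 and 308 CPM in non-cycling barcodes, Cd93 at 1218, 1320 and 1392 against 1143, 1281 and 1315 CPM, and Plvap, which forms the diaphragms of fenestrae, at 302, 368 and 435 against 340, 335 and 509 CPM. None of the 5 gCAP genes at the level was counted in either direction. Neither was any of the arterial list (5 genes at the level), nor of the lists for VEGF, apelin, angiopoietin and Notch (20), BMP and TGF-beta (14), TNF and NF-kB (10), interferon and antigen presentation (16), basement membrane and matrix (20), glycolysis (9) or vasoregulation and barrier (13). The lists for vasoregulation and barrier, arterial genes and VEGF signaling had negative medians, -0.60, -0.75 and -0.39, with Calcrl, an adrenomedullin receptor, at 1157, 437 and 340 against 1793, 1019 and 698 CPM.

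The NF-kB targets Nfkbia and Icam1 differed by less than 2-fold between the kinds. Nfkbia, the inhibitor of NF-kB and a target of it, was at 556, 618 and 616 CPM in cycling and 649, 604 and 638 CPM in non-cycling TNF-Tg barcodes, and Icam1, a leukocyte adhesion molecule, at 213, 207 and 232 against 230, 205 and 219 CPM. Bmpr2, the type II BMP receptor, was at 632, 419 and 374 against 703, 747 and 597 CPM, a median log2 ratio of -0.67 that did not reach 2-fold. Prnd, which encodes the prion-like protein Doppel, was at 138, 315 and 417 CPM in cycling and 156, 309 and 428 CPM in non-cycling TNF-Tg barcodes, while in WT non-cycling barcodes it stood at 0.396, 0.224 and 3.42 CPM.

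**Figure D4:**
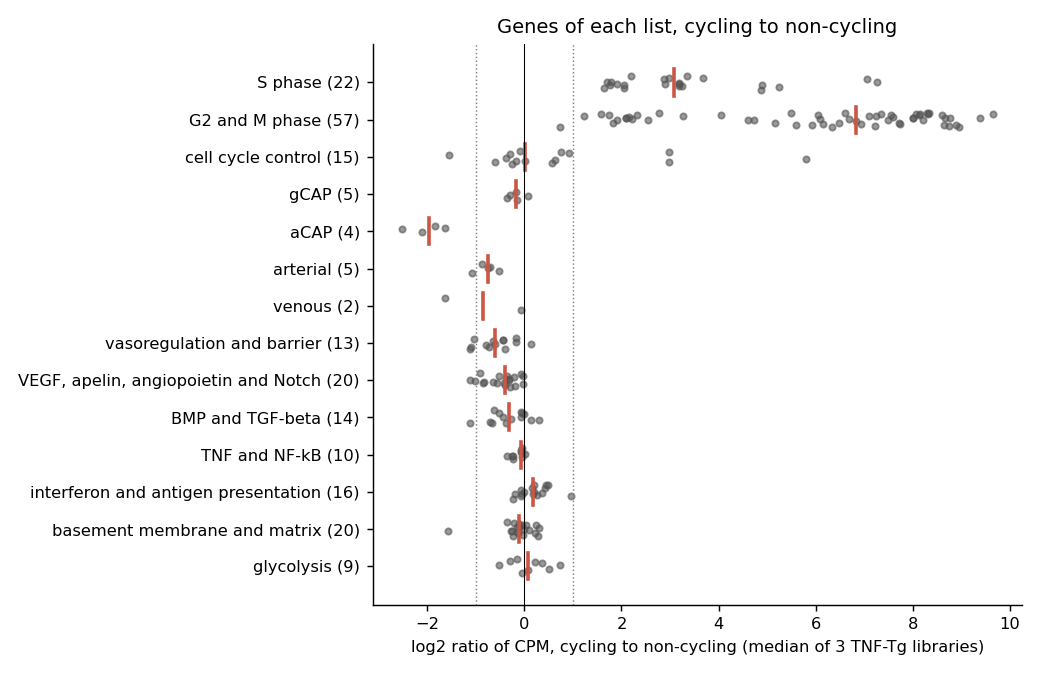
Median log2 ratio of CPM over the 3 TNF-Tg libraries, cycling to non-cycling barcodes (x axis), of each gene that reached 50 CPM, by list (y axis, number of genes in brackets, rule genes left out); points are genes, red bars list medians, and dotted lines mark 2-fold. S phase and G2 and M phase genes lie to the right with medians of 3.08 and 6.83, the 4 aCAP genes to the left with a median of -1.97, positions that follow in part from the 50 CPM level, and the medians of the remaining lists between -0.86 (venous, 2 genes) and 0.18 (interferon and antigen presentation).

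Genotype was not used by the rule, and the members of TNF-Tg and WT libraries were compared by summing the UMIs of each library's members. The 14-week WT library, with 7 members, was left out, so that 2 WT sums of 208830 and 337528 UMIs stood against 3 TNF-Tg sums of 4299484, 2946469 and 2443285 UMIs. With all members, edgeR's quasi-likelihood test with Benjamini-Hochberg adjustment over 10848 genes found 4 genes (0.0369%) higher and 2 (0.0184%) lower in TNF-Tg, 0.0553% in either direction. The higher genes were Igfbp7, Meox1, Msx1 and AW112010, and the lower genes Slc6a2 and Samd5. At an unadjusted p below 0.05 there were 1672 genes, and DESeq2 called 159 higher and 187 lower.

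Without the keratin barcode of the 20-week WT library, the same test found 59 genes (0.541%) higher and 36 (0.33%) lower of 10897 (0.872% in either direction), among them all 6 above. This alternative was chosen after the data were seen, and that barcode supplied 50.8% of the UMIs of 1 of the 2 WT sums. In non-cycling endothelial barcodes, 1398 genes (9.32%) were higher and 1334 (8.9%) lower in TNF-Tg of 14996 tested. Of the 59 genes, 49 were also higher there at an adjusted p below 0.05, and of the 36 genes, 32 were also lower, with none called in the opposite direction. The sums of non-cycling barcodes hold many more UMIs, and the unequal counts of calls do not by themselves show unequal effects.

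Igfbp7, a secreted protein of the vascular basement membrane (ENSMUSG00000036256, GRCm38 chr5:77349240-77408041, minus strand), stood at 105 and 96.4 CPM in the 8- and 20-week WT members without the keratin barcode and at 139 CPM in those at 14 weeks. TNF-Tg members held 1936, 4081 and 3948 CPM. The log2 fold change was 5.13 (SE 0.42, adjusted p = 0.00579, edgeR; 5.32 and 0.0325 with the keratin barcode), and it kept an adjusted p below 0.05 in 13 of 16 alternatives. In non-cycling barcodes the change was smaller, with 1303, 1147 and 1028 CPM in WT in comparison to 2455, 4466 and 4705 in the TNF-Tg libraries (log2 fold change 1.72, SE 0.32, adjusted p = 0.0222). WT cycling barcodes were thus lower in Igfbp7 than WT non-cycling ones in every library, whereas in TNF-Tg the cycling and non-cycling levels of a library differed by less than 2-fold. Leaving out the 20-week WT, the 14-week TNF-Tg or the 20-week TNF-Tg library ended the call with all members (adjusted p = 0.209, 0.105 and 0.148), and no gene was then called.

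Some other transcripts of matrix and basement membrane were higher in TNF-Tg members. Of 24 listed genes 6 were called higher without the keratin barcode and none lower (1 higher with it), beside 0.541% of all genes. Hspg2, which encodes perlecan, stood at 19.2, 34.9 and 24.1 CPM in WT members against 184, 316 and 384 in TNF-Tg members (log2 fold change 3.87, SE 0.51, adjusted p = 0.0225; 0.0681 with the keratin barcode). The collagen IV chains Col4a1 (790, 581 and 880 against 1997, 2589 and 2667 CPM) and Col4a2 (407, 302 and 470 against 1078, 1372 and 1290 CPM) had log2 fold changes of 1.63 and 1.60, Sparc 1.77 and Cd34 1.71, with adjusted p-values from 0.0135 to 0.0190. With the keratin barcode none of these passed (adjusted p = 0.0860 for Col4a1 and Col4a2, 0.0895 for Sparc and 0.0681 for Cd34). In non-cycling barcodes the log2 fold changes were 4.26 for Hspg2, 1.75 for Col4a1, 1.72 for Col4a2, 1.80 for Sparc and 1.51 for Cd34. There 11 of the 24 listed genes were called higher and 1 lower, beside 9.32% and 8.9% of all genes. For Hspg2, Col4a1, Col4a2, Sparc and Cd34 all TNF-Tg libraries lay above all WT libraries, the 14-week WT library included, which the test did not use. Among the tested libraries none of the 95 genes called without the keratin barcode overlapped. The summed mesenchymal list stood at 4.79, 69.7 and 518 CPM in WT members (255 CPM at 20 weeks with the keratin barcode). TNF-Tg members held 456, 1170 and 420 CPM. Without the keratin barcode the genotypes overlapped, the 20-week WT members standing above those of TNF-Tg of the same age. With that barcode they did not overlap. The 20-week WT level rested on 86 UMIs, the list being met in 2 of 18 members, both called doublets. Other lists were higher in TNF-Tg members: without the keratin barcode the mesothelial list stood at 4.79, 0 and 0 CPM in WT against 13.5, 117 and 125 in TNF-Tg, led by Msln at 14 and 20 weeks, and the epithelial list at 14.4, 0 and 0 against 32.3, 108 and 29.1 CPM, both without overlap, although with that barcode the epithelial list stood at 113 CPM in the 20-week WT members and overlapped. The mural list stood at 23.9, 34.9 and 96.4 against 508, 681 and 88.4 CPM and overlapped, as its 20-week levels were close. The immune list stood at 4.79, 0 and 0 against 3.26, 15.3 and 352 CPM and overlapped at 8 weeks. It was led by Lyz2 at 274 CPM in the 20-week TNF-Tg members. The erythroid and platelet list stood at 225, 48929 and 6.03 against 109, 603 and 2779 CPM and overlapped. With every barcode of 2 or more genes of another lineage left out, Igfbp7 kept a log2 fold change of 5.95 (adjusted p = 0.00312), and the part of the other-lineage markers in the other matrix genes was not tested.

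Meox1, a homeobox transcription factor (chr11:101877510-101894374, minus strand), rose from 4.79, 11.6 and 6.03 CPM, or 1 UMI in each WT library, to 190, 225 and 241 CPM, and Msx1, another homeobox gene, from 4.79, 0 and 12.1 CPM to 123, 105 and 94.5 CPM. Rgcc, a regulator of the cell cycle known to be high in general capillaries, stood at 14.4, 93.0 and 6.03 CPM in WT members against 281, 634 and 844 in TNF-Tg members (log2 fold change 5.87, SE 0.77, adjusted p = 0.0222; 0.152 with the keratin barcode). Non-cycling barcodes changed too, from 37.5, 24.1 and 31.2 CPM in WT to 284, 669 and 843 in TNF-Tg (log2 fold change 4.11, adjusted p = 0.0107, edgeR). The difference between these changes was not called (adjusted p = 0.114, edgeR, test described below). AW112010, an interferon- and inflammation-induced transcript (chr19:11047612-11055808, minus strand), stood at 28.7, 105 and 48.2 CPM against 377, 405 and 537 CPM. Tnip1, a feedback inhibitor of NF-kB, Tox2, Arrdc4 and S100a6 were, with Igfbp7 and Hspg2, the rest of the 10 genes with the largest increases among called genes of at least 50 CPM on average in the higher genotype, with log2 fold changes between 3.01 and 4.25. In non-cycling barcodes all of these 10 but S100a6 (adjusted p = 0.184, edgeR) were also called higher in TNF-Tg. With the keratin barcode Meox1, Msx1 and AW112010 stayed called (adjusted p = 0.0184, 0.0325 and 0.0266), whereas Tnip1, Tox2, Arrdc4 and S100a6 did not (0.0693, 0.0693, 0.0860 and 0.976). Below 50 CPM, Far2 was also called without the keratin barcode, at 0 in the 3 WT libraries and at 33.3, 36.3 and 35.2 CPM in TNF-Tg. With that barcode the 20-week WT members held 1 UMI of Far2 (2.96 CPM) and it was not called (adjusted p = 0.0860); it is named here after its values were seen.

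Of 7 venous genes tested, Vwf and Slc6a2 were called lower in TNF-Tg members without the keratin barcode and Slc6a2 alone with it, and none was higher, beside 0.33% and 0.0184% of all genes called lower. Slc6a2, the noradrenaline transporter and a marker of lung venous endothelium (chr8:92960079-93001667), stood at 172, 384 and 289 CPM in WT members against 5.12, 0 and 1.23 in TNF-Tg members (log2 fold change -6.42, SE 0.67, adjusted p = 0.0135; 0.0474 with the keratin barcode). Vwf, von Willebrand factor (chr6:125546774-125686679), stood at 407, 849 and 880 CPM against 44.4, 10.2 and 56.9 CPM (-4.02, SE 0.59, adjusted p = 0.0289; 0.0860 with the keratin barcode). Lyve1, a hyaluronan receptor of lymphatic and some blood endothelium, stood at 431, 628 and 524 CPM against 38.1, 3.39 and 27.4 CPM, and Vegfc, a lymphatic growth factor, at 134, 186 and 133 against 9.54, 6.79 and 21.3 CPM. Samd5, Gata3, Slc16a9, Ptgs1 (cyclooxygenase 1), Entpd1 (CD39) and Krt80 had log2 fold changes between -4.39 and -2.50. In non-cycling barcodes each of these genes, and Slc6a2, Vwf, Lyve1 and Vegfc, was also called lower in TNF-Tg. With the keratin barcode Samd5 stayed called (adjusted p = 0.0391), whereas Lyve1, Vegfc, Gata3, Slc16a9, Ptgs1, Entpd1 and Krt80 did not, with adjusted p-values from 0.0693 for Slc16a9 and Ptgs1 to 0.104 for Lyve1. For each of these genes but Gata3, which was at 0 in the 7 WT members at 14 weeks, the 3 WT libraries lay above the 3 TNF-Tg libraries. All 95 genes called without the keratin barcode were free of overlap among the tested libraries, so only the 14-week WT library adds to this. With all members, Slc6a2 and Samd5 each kept their call in 11 of 16 alternatives. Both lost it with doublets removed (adjusted p = 0.0924 and 0.105, edgeR) and with at least 2 cycling genes (0.0562 for each).

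None of the 44 S phase genes and none of the 64 G2 and M phase genes outside the rule passed the test, with or without the keratin barcode. Hmgb2 stood at 4382, 3139 and 2646 CPM in WT members against 3175, 2588 and 2440 in TNF-Tg members (log2 fold change -0.27, SE 0.21, adjusted p = 0.557). Mki67, a gene of the rule, stood at 1049, 1407 and 880 against 930, 926 and 1050 CPM, given as a description. Of the 37 control genes Ccnd1 alone was called, beside 0.541% of all genes higher, at 158, 93.0 and 259 CPM in WT members against 478, 567 and 628 in TNF-Tg members (log2 fold change 1.52, SE 0.25, adjusted p = 0.0381; 0.0860 with the keratin barcode). Of the TNF and NF-kB list none of 21 genes tested was called, Nfkbia having a log2 fold change of 1.15 (adjusted p = 0.0527). The median log2 fold change of the list was 1.15 in cycling barcodes, against 0.10 over all genes tested, and 0.91 in non-cycling barcodes, where 10 of these 21 genes were called higher and 1 lower, beside 9.32% and 8.9% of all genes there. Bmpr2 stood at 948, 756 and 1000.4 against 632, 419 and 374 CPM (-0.95, adjusted p = 0.0877).

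Other lists had few calls, and these were made only without the keratin barcode. Cxcl12, a chemokine of arterial endothelium, was higher (144, 337 and 265 against 976, 677 and 647 CPM), the only one of 8 arterial genes called, beside 0.541% of all genes higher. Flt1, a VEGF receptor (1 of 26 genes of its list), Thbd (thrombomodulin) and Ptgs1 (2 of 16 vasoregulation and barrier genes) and Gbp2 (1 of 25 interferon and antigen presentation genes) were lower, beside 0.33% of all genes, with log2 fold changes of -1.58, -1.46, -2.71 and -1.32. With the keratin barcode the adjusted p-values were 0.0681 for Cxcl12, 0.187 for Flt1, 0.146 for Thbd, 0.0693 for Ptgs1 and 0.152 for Gbp2. None of 6 gCAP genes, 6 aCAP genes or 23 BMP and TGF-beta genes was called.

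Whether the genotype difference itself depended on the state of the cell was tested with a genotype by state term, each library's cycling and non-cycling sums being paired as a block. The term is the log2 change of TNF-Tg over WT in cycling barcodes minus that in non-cycling barcodes, so that a negative term can stand for a larger decrease as well as for a smaller increase. With all members 3 genes (0.0208%) had a positive and 24 (0.166%) a negative term of 14420 tested, and without the keratin barcode 31 (0.216%) and 26 (0.182%) of 14325 (0.398% in either direction). Igfbp7 (log2 term 3.65, SE 0.28, adjusted p = 0.000868; without the keratin barcode 3.48, SE 0.15, adjusted p = 2.85e-09) and AW112010 (2.91 and 2.54, adjusted p = 0.00513 and 0.000301) had the smallest adjusted p-values among the positive terms both times. Positive terms without the keratin barcode were also called for Meox1 (3.01, adjusted p = 0.0237), Car4 (1.63, 0.0420), Kdr, a VEGF receptor (1.04, 0.0163), and Edn1 (1.43, 0.0447), but not with it (adjusted p = 0.0537, 0.128, 0.132 and 0.0667 in this order). The largest positive term there was that of Saa3, an acute phase protein (5.24, adjusted p = 0.0246; 0.0639 with the keratin barcode), named after its values were seen, which stood in the 20-week TNF-Tg members at 450 CPM beside 0 and 6.45 CPM at 8 and 14 weeks.

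The genes with a negative term included some of the venous and of the G2 and M phase list. Slc6a2 had a term of -2.52 (adjusted p = 0.0492) with and -2.86 (0.00273) without the keratin barcode and was called in 9 of 15 alternatives, not with DESeq2 (adjusted p = 0.120), with doublets removed (0.134), with at least 2 cycling genes (0.0647), with no replicate block (0.608), or without the 8- or the 14-week TNF-Tg library (0.285 and 0.103). Without the keratin barcode Vwf had -1.74 (0.0246), Car8 -2.30 (0.0448) and Samd5 -1.63 (0.0447), and with it these 3 were not called (-1.40, -1.96 and -1.24, adjusted p = 0.143, 0.120 and 0.198). For Slc6a2, Vwf and Samd5 the decrease was larger in cycling barcodes, their log2 fold changes in non-cycling barcodes being -3.72, -2.25 and -2.62. In WT the level of Slc6a2 rose from 76.5, 109 and 89.1 CPM in non-cycling to 172, 384 and 289 CPM in cycling barcodes, while in TNF-Tg it was 15.2, 1.93 and 1.55 CPM in non-cycling barcodes. Of the 69 genes of the G2 and M phase list 9 had a called term without the keratin barcode, beside 0.398% of all genes. None of the 9 was a rule gene. Of these 9 terms, 8 were negative, beside 0.182% of all genes, and that of Anp32e was positive (1.10, 0.0237). With the barcode Ckap2 alone was called. Because the rule chose both kinds of barcode by genes of this list, nothing is read from these counts. Ckap2, a spindle protein, had -3.22 (0.000962) without that barcode, with 469, 314 and 313 CPM in cycling barcodes of WT against 253, 208 and 193 in those of TNF-Tg, and 0.360, 0.187 and 0.0967 against 1.37, 1.80 and 0.913 CPM in non-cycling ones. Non-cycling barcodes were chosen by detection at unequal depth, so that the part of depth in these mitotic terms was not tested apart from thinning.

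**Figure D5:**
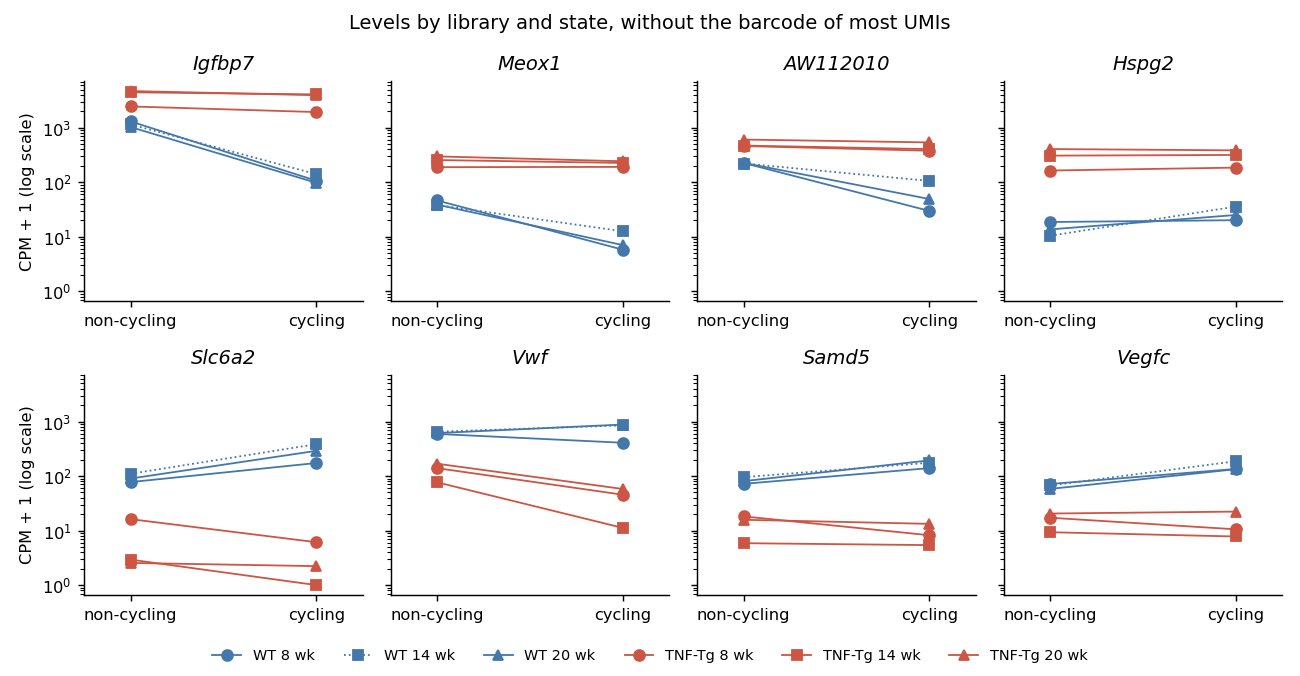
CPM + 1 on a log scale (y axis) of 8 genes in the non-cycling and cycling sums of each library (x axis), without the keratin barcode; blue WT, red TNF-Tg, circle 8, square 14, triangle 20 weeks, dotted line the 14-week WT library, which the tests left out. From non-cycling to cycling the WT levels are lower for Igfbp7, Meox1 and AW112010 and higher for Slc6a2, Samd5 and Vegfc, while the TNF-Tg levels of Igfbp7 lie between 1936 and 4705 CPM in both.

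Proliferation markers were also met outside the endothelium. Among barcodes that passed the filter but not the endothelial rule, at least 3 of the 5 proliferation genes were detected in 2 of 1093, 0 of 737 and 0 of 817 WT barcodes and in 10 of 591, 31 of 1059 and 24 of 2242 TNF-Tg barcodes, shares of 0.183%, 0% and 0% against 1.69%, 2.93% and 1.07%. The 2 counts of 0 allow shares of up to 0.407% and 0.367% when 3 counts of the total are taken as the limit, and the exact 95% upper bounds were 0.499% and 0.450%. In the TNF-Tg libraries the endothelial shares of 4.89%, 3.87% and 3.46% were above the non-endothelial ones at each age, although the exact intervals overlapped at 14 weeks (3.34 to 4.45% against 1.997 to 4.13%), and in WT the intervals overlapped at all 3 ages.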

How the data were processed

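The authors sequenced 3′ droplet libraries, counted UMIs per gene and barcode with Cell Ranger (5.0.0 per the labels, 6.0.1 in the file headers of the 14- and 20-week libraries) on mm10, and deposited filtered matrices of raw counts for 32285 genes. No column of another sample was present. Members, lists and tests were chosen with earlier results of these data known. Doublets were called per library with Scrublet in Scanpy 1.11.5 and kept, 49 of 669 members being called beside 1711 of all 31669 endothelial barcodes. In the 20-week TNF-Tg library 16 of 142 members were called, beside 242 of 4103 endothelial barcodes. The number called in a library was set in advance, at 0.8% per 1000 barcodes, and the highest scores were taken. Counts were summed per library and state, and libraries with at least 10 members were tested with edgeR 4.0.16 (quasi-likelihood, TMM, filterByExpr, Benjamini-Hochberg adjusted p below 0.05). DESeq2 1.42.0 was an alternative. Genotype by state was fitted with the library as a block. Single values were tested by exact permutation over libraries (SciPy 1.17.1). Named genes were those past the threshold with a mean of at least 50 CPM in the higher group, no overlap between genotypes and the largest changes, at most 10 in each direction, and genes of the lists. On simulated counts for the genotype comparison in cycling barcodes (10959 genes), 21% of 2-fold and 97% of 4-fold changes were recovered. The simulation gave every gene the same fixed dispersion and put changes only into genes with enough counts in the smallest sum. Its dispersion was not estimated from the real sums, so these shares are not the power of the tests. Coordinates are from GENCODE vM21 (GRCm38).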

Additional observations from a re-analysis of the deposited data

Results flagged for a closer look

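With all members, the genotype difference was called to differ between cycling and non-cycling endothelial barcodes for 27 genes. This used the genotype by state term (log2, edgeR with adjustment over 14420 genes). For 9 of the 27 the term is given here, with all members and without the keratin barcode of the 20-week WT library. The term, TNF-Tg over WT in cycling minus the same in non-cycling barcodes, was positive for Igfbp7 (3.65 with and 3.48 without that barcode), AW112010 (2.91 and 2.54) and Scn7a, a sodium channel (1.67 and 1.30, adjusted p = 0.0354 and 0.0221). It was negative for Ckap2 (-3.01 and -3.22), Slc6a2 (-2.52 and -2.86) and Trim59 (-1.996 and -2.27, adjusted p = 0.0370 and 0.000378), and for Slc6a2 this stood for a larger decrease in cycling barcodes (log2 fold change -6.07 with all members) than in non-cycling ones (-3.72). Ckap2 and Trim59 were not called by genotype in members (log2 fold change -0.51 and -0.05, adjusted p = 0.557 and 0.975, edgeR). Their mean non-cycling levels in the tested libraries were low, 0.228 (WT) and 1.36 CPM (TNF-Tg) for Ckap2 and 2.11 and 8.83 CPM for Trim59. Non-cycling barcodes were chosen by absence of proliferation genes at unequal depth, so nothing is read from the terms of Ckap2 and Trim59. Phgdh, an enzyme of serine synthesis (-3.63, adjusted p = 0.0205), and Bok (-2.33, adjusted p = 0.0492) were no longer called without the barcode, at -2.15 (adjusted p = 0.230) and -2.01 (adjusted p = 0.0772). Tgm3, a transglutaminase of squamous epithelium, had a term of -12.5 (adjusted p = 0.0166), stood at 1058 CPM in the 20-week WT members and at 0 in the members of the other 5 libraries, and was not tested without the barcode. Over 15 alternatives the call was kept in 14 for Igfbp7 and AW112010, 13 for Ckap2, 11 for Trim59, 10 for Scn7a, 9 for Slc6a2 and 8 for Phgdh and Bok, and in 9 of 10 for Tgm3.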

How the results depend on the processing

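The difference in cycling share kept its direction without overlap in 13 of 13 alternatives (2.94 to 5.35 percentage points), at equal depth in 16 of 16 (1.56 to 3.34) and as summed CPM in 10 of 10 (177 to 205). Leaving out 1 library gave 3.37 to 4.09, 2.21 to 2.62 and 177 to 205, and 0.171 to 3.60 for the S phase share. The vessel lists reversed at full depth for gCAP (0.938) and venous (12.0) and with other lineages removed for gCAP (0.747).

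Counts of genes called by genotype in cycling barcodes were unstable. Against 4 higher and 2 lower, there were 159 and 187 with DESeq2, 153 and 284 with no filter on low counts, 53 and 39 with other lineages removed, 42 and 39 with each barcode thinned, 14 and 4 with at least 2 cycling genes, 47 and 24 with all 6 libraries, and 59 and 36 without the keratin barcode; with doublets removed none was lower. Leaving out 1 library gave 0 to 285 higher and 0 to 556 lower. The highest counts were without the 8-week WT library, where the 20-week WT library, keratin barcode included, stood alone; with 1 WT library the spread comes from TNF-Tg only and WT is assumed to vary alike. No gene was called without the 20-week WT or the 14- or 20-week TNF-Tg library. Age shared between genotypes as a replicate block gave 45 and 119, and 117 and 73 with all 6 libraries; the correlations of same-age deviations were 0.0712, 0.133 and 0.123, so the numbers were not taken as pairs.

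For the genotype by state term, 3 positive and 24 negative terms became 70 and 121 with DESeq2, 232 and 401 with no filter, 107 and 74 with other lineages removed, 83 and 42 thinned, 27 and 46 with all 6 libraries, and 31 and 26 without the keratin barcode. There were 8 positive with doublets removed, 6 positive with at least 2 cycling genes, and 0 and 0 with no replicate block. Leaving out 1 library gave 2 to 1140 positive and 9 to 861 negative, the highest again with the 20-week WT library alone. The 222 higher and 18 lower genes of the state description became 713 and 1055 with no floor on CPM, 29 lower when thinned, and 234 to 268 higher and 21 to 56 lower with 1 library left out, the 56 without the 8-week TNF-Tg library. The cause of these changes was not tested. Of single genes, the alternatives were run for the 6 called with all members, the 9 genotype by state terms given above and 20 state ratios: none changed direction, 22 of 96 genotype values and 34 of 130 state terms lost their call, and 15 of 160 ratios moved by more than the spread between libraries (Ednrb from -2.52 to -3.70 and Depdc1a from 9.39 to 8.20 when thinned); the other genes named were computed with and without the keratin barcode only. The WT sums held few barcodes. On simulated counts of fixed dispersion for the genotype comparison in cycling barcodes, 21% of 2-fold and 97% of 4-fold changes were recovered. Those shares are not the power on the real sums. With all members Hspg2 (log2 fold change 4.23, adjusted p = 0.0681, edgeR) and Lyve1 (-3.92, 0.104) were not called.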
